A study of Mus musculus with 6 samples.

Results

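Interferon-stimulated genes and the genes of antigen presentation were followed in the hearts of mice that express human SRY outside the testis. The members are the array probes whose gene symbol begins with H2-, Ifi, Ifn, Oas, Isg or a numbered Irf, Stat or Gbp, together with Tap1, Tap2, B2m, Mx1, Mx2, Cd74 and Ciita. They number 176 probes of 121 gene symbols, out of 25697 probes of 18138 symbols. Of these, 127 probes of 81 symbols form the interferon group and 49 probes of 40 symbols form the major histocompatibility complex (MHC) group.

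Whole hearts of male pups of the FVB strain (FVB/N in the methods) were collected at postnatal day 6, 3 from hSRY-ON and 3 from hSRY-OFF animals. In both groups the labels give the same strain, age, sex and tissue. In hSRY-ON animals the Signalox-hSRY responder, a single-copy transgene of 1 mouse line at the H11 locus, had been recombined by Ddx4-Cre from the mother's oocyte. The ubiquitous CAG promoter then drives FLAG-tagged human SRY and EGFP from the earliest embryo onward, in every organ rather than in the heart alone. The hSRY-ON pups chosen for the arrays did not carry Ddx4-Cre themselves. The methods call hSRY-OFF those animals whose Signalox-hSRY cassette was not recombined, while the control littermates are elsewhere described as carrying Ddx4-Cre alone or no transgene, so which of these transgenes the 3 hSRY-OFF pups carried is not settled here. The hSRY-ON pups are sick, stunted animals, and a change in their hearts cannot be told apart from one that follows poor growth. The transgene itself was not measured here.

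Interferons are secreted proteins that cells release on sensing viral nucleic acid or, for interferon gamma, when lymphocytes are activated. They bind paired receptor chains, whose Janus kinases phosphorylate STAT proteins. STAT dimers and IRF factors then switch on antiviral effectors such as the Gbp, Oas, Mx, Ifit and Ifitm families, and interferon gamma in particular raises the MHC molecules, the Tap transporter and the immunoproteasome that supply peptides to T cells.

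The arrays detected between 12138 and 13172 probes each (47.2% to 51.3%), and no pair of arrays held identical values. Probes detected (p under 0.05 against the negative controls) on 3 or more of the 6 arrays were tested, and a probe was called when limma's adjusted p was under 0.05. All 6 cardiomyocyte markers on the array were detected. Values below are normalized log2 intensities, each on its own probe's scale, so 1 probe's level cannot be set against another's. In RNA from a whole heart, fewer cells of a type and less RNA per cell cannot be told apart.

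Only a minority of the members was measurable. Of the 176 probes 69, from 49 genes, were tested, and 89 were above background on no array. Among the tested probes 15 were called (21.7%), against 27.5% of all 12970 tested probes. Of these, 5 probes of 4 genes rose in hSRY-ON hearts (7.25%, against 13.8% of all tested probes) and 10 probes of 6 genes fell (14.5%, against 13.7%). All 15 belonged to the interferon group, of which 27.8% was called, the same as the background share to within 1 percentage point. That group includes 4 probes, of Irf2bp1, Isg20l1 and Isg20l2, that match by symbol but belong to other families. Of these, 2 were tested and 0 were called by limma. In the MHC group, 0 of 15 tested probes were called by limma, and 2 (13.3%) had an unadjusted p under 0.05, against 5225 of all tested probes (40.3%). The median log2 fold change was -0.08 over the interferon group and -0.23 over the MHC group, against -0.01 over all tested probes.

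**Figure D1:**
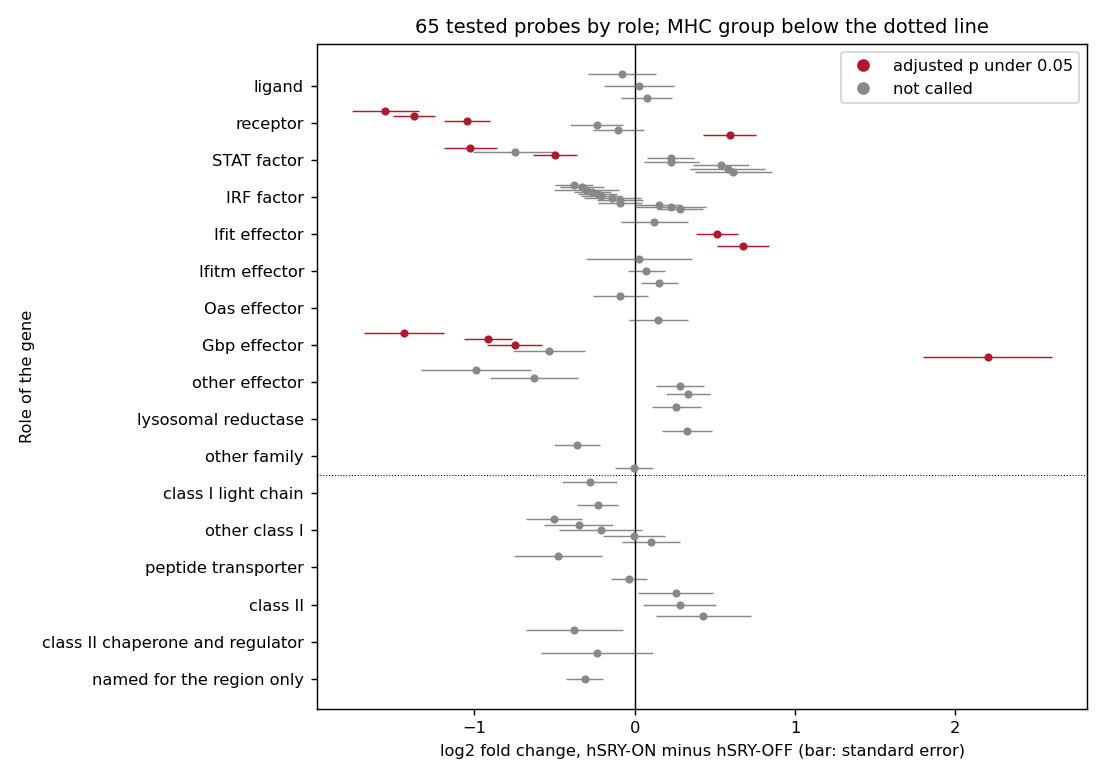
Log2 fold change, hSRY-ON minus hSRY-OFF, of 65 tested member probes, sorted by role on the vertical axis, with bars for the standard error and red for an adjusted p under 0.05. The receptor, STAT and Gbp rows spread widest to the left, Gbp10 lies farthest to the right, and no probe below the dotted line, which bounds the MHC group, is red.

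The DNA upstream of 4 of the called genes is shown first, because STAT and IRF factors act through short elements there. The sequences are the 250 bases before the RefSeq start, on the plus strand of GRCm38.p6, the C57BL/6J reference and not the FVB genome of these pups. Capitals mark the interferon-stimulated response element (ISRE), searched on both strands as a pair of GAAA blocks with any 2 bases between them, or the gamma-activated site (GAS), searched as TTCNNNGAA on both strands, which is its own reverse complement. Gbp2 (chr3:142620413-142620662) holds 1 ISRE on the minus strand, with its first base at position -59 from the start. Gbp3 (chr3:142559794-142560043) holds a pair that overlaps, also on the minus strand. Stat2 (chr10:128270248-128270497) holds 1 ISRE on the minus strand. Ifit2 (chr19:34550444-34550693) holds 1 GAS and no ISRE in this window. Gbp3 and Ifit2 each have a second RefSeq start, not shown, whose window holds neither motif.
Gbp2: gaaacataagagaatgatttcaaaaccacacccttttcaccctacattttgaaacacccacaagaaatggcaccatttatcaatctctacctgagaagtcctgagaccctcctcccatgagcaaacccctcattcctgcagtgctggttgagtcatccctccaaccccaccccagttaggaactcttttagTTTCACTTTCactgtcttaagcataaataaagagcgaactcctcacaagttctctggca
Gbp3: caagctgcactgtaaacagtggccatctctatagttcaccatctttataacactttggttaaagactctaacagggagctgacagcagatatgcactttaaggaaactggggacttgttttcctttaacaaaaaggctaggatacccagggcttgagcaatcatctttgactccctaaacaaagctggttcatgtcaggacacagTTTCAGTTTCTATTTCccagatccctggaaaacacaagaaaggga
Stat2: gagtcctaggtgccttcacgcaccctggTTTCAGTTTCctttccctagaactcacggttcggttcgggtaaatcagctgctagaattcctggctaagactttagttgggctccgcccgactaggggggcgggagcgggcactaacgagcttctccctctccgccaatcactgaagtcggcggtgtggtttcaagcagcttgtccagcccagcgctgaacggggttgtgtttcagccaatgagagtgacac
Ifit2: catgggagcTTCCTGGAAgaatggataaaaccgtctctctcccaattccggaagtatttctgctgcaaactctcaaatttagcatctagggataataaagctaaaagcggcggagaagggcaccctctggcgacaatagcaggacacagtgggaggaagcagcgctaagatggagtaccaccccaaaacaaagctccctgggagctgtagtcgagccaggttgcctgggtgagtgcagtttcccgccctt

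Searched over the 300 bases around the start, which add 50 bases after it, the ISRE letters were found in 41.8% of the 67 interferon-group genes that have a promoter entry, against 3.99% of all 27025 genes with one. The GAS letters were found in 34.3%, against 9.55%. Several of the interferon-group genes with the ISRE letters were Ifna ligands, near-identical copies whose matches are not independent. Among the 39 tested members with an entry, 28.2% held the ISRE letters and 30.8% the GAS letters. In the MHC group 2 of 28 genes held the ISRE letters (7.14%) and 3 held the GAS letters (10.7%). Promoters were at hand for 95 of the 121 member symbols, 4 of them through a synonym. Among the genes that fell, 5 had an entry, and Gbp2, Gbp3 and Stat2 held an ISRE while Ifngr2 and Stat5a held neither motif. Among those that rose, 2 had an entry, of which Ifit2 held a GAS and Ifngr1 held neither. Gbp10 had no entry. A match is a stretch of letters, not a bound site.

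Most probes of the interferon ligands themselves were at background. Of 20 ligand probes 16, among them those of Ifnb1 and Ifng, were detected on no array. Only Ifna1, a probe of Ifna6 and a probe of Ifnz were tested. Their log2 fold changes were 0.03, -0.08 and 0.08, with adjusted p from limma between 0.756 and 0.943. The Ifna1 probe and the tested Ifna6 probe were above background on all 6 arrays, and the other Ifna6 probe on none. The Ifna genes are near-identical copies of one another, so an Ifna probe may read more than 1 of them. Ifih1, a sensor of double-stranded RNA, was detected on no array.

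The receptor for interferon gamma changed in both of its chains, in opposite directions. Ifngr2, the signalling chain that carries Jak2, fell on all 3 of its probes. On the probe with the smallest error, the hSRY-OFF hearts read 9.66, 9.89 and 9.64 and the hSRY-ON hearts 8.34, 8.24 and 8.49. Every hSRY-ON heart lay below every hSRY-OFF heart, as for 45.2% of all tested probes in one direction or the other, and the difference of -1.38 ± 0.13 (SE, n = 3 per group) had an adjusted p of 0.000526 (limma). The probe with the largest change read 9.16, 9.37 and 8.60 in hSRY-OFF and 7.36, 7.69 and 7.42 in hSRY-ON hearts, a difference of -1.55 ± 0.21 (adjusted p = 0.00189, limma). The remaining probe differed by -1.05 ± 0.15 (adjusted p = 0.00214, limma). Across the 3 probes the hSRY-ON level was 2.06-fold to 2.94-fold lower, and the groups overlapped on none.

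Ifngr1, the ligand-binding chain, rose. It read 9.26, 9.16 and 9.32 in hSRY-OFF and 9.77, 10.16 and 9.59 in hSRY-ON hearts. The groups did not overlap, and the difference was 0.59 ± 0.16 (SE, adjusted p = 0.0327, limma). This call was lost when any 1 of hSRY-OFF replicates 1 and 2 or hSRY-ON replicates 1 and 2 was left out, with adjusted p between 0.0666 and 0.0958. It was also lost in the fit with the replicate number as a block (adjusted p = 0.0703) and without normalization between arrays (0.326). Ifnar2, a chain of the receptor for type I interferons, differed by -0.24 and -0.10 on its 2 tested probes (adjusted p = 0.327 and 0.681, limma). The probe of its partner Ifnar1 was detected on no array.

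Among the signal transducers, Stat5a and Stat2 fell. Stat5a, a transducer of prolactin and growth hormone signals more than of interferon, read 8.48, 8.06 and 8.37 in hSRY-OFF and 7.30, 7.05 and 7.49 in hSRY-ON hearts. It fell by 1.02 ± 0.17 (adjusted p = 0.00403, limma), with no overlap. A dimmer Stat5a probe differed by -0.75 and was not called (adjusted p = 0.0696). Stat2, a transducer of type I interferon and a holder of the ISRE shown above, read 7.06, 6.95 and 6.74 against 6.51, 6.47 and 6.28. Its groups also stood apart, with a difference of -0.50 ± 0.14 (adjusted p = 0.0319). The Stat2 call was the least stable of the 15, since it was lost in 10 of 16 alternative fits, among them each fit without 1 heart except that without hSRY-OFF replicate 3 (adjusted p between 0.061 and 0.115 in those fits).

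Stat3 and Stat6 differed in the opposite direction without being called in the main fit. Stat3, which transmits interleukin 6 and related cytokines, had log2 differences of 0.58, 0.54 and 0.23 on its 3 probes, with adjusted p of 0.106, 0.0541 and 0.356 (limma). For the probe at 0.54 the hSRY-OFF hearts read 9.45, 9.35 and 9.79 and the hSRY-ON hearts 9.96, 10.34 and 9.91, without overlap. Several alternative fits called this probe (limma). Among them were those without background correction (adjusted p = 0.0246), with median scaling (0.0227) and with an intensity trend (0.0201). The fit without hSRY-OFF replicate 3 called it too (0.0292). Stat6, the interleukin 4 transducer, differed by 0.62 and 0.23 (adjusted p = 0.0969 and 0.297). Without hSRY-ON replicate 3 the Stat6 probe with the larger change was called (adjusted p = 0.0131, limma).

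Irf1, Irf3, Irf8 and Irf9, factors of the interferon response, were not called. Irf1, an early target of interferon gamma, differed by -0.14 to -0.38 on 4 probes. The Irf1 probe with the largest difference read 7.57, 7.54 and 7.49 against 7.17, 7.27 and 7.04 and sat at the threshold, with an adjusted p of 0.050, and 3 of the alternative fits called it. Irf9, which binds the ISRE with Stat2, differed by -0.23 and -0.33 (adjusted p = 0.193 and 0.114), with the hSRY-ON hearts below the hSRY-OFF hearts on both probes. Irf3, which answers nucleic acid sensors, lay between -0.09 and 0.15 on 3 probes. Irf8, a factor of macrophages and dendritic cells, differed by -0.30 (adjusted p = 0.306) and was above background on only 3 arrays. Irf7 was detected on no array.

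**Figure D2:**
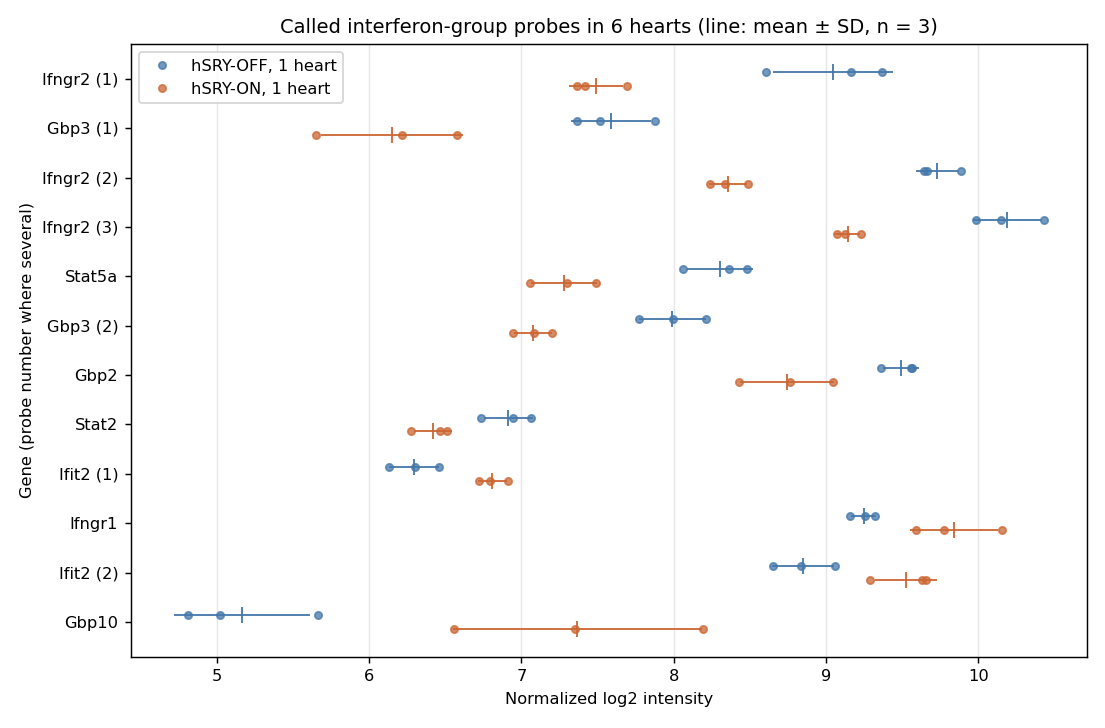
Normalized log2 intensity, on the horizontal axis, of 12 called probes in each heart (points: 1 heart each; vertical ticks and bars: mean ± SD, n = 3 per group), ordered by fold change from the largest decrease. In all 12 rows the 3 hSRY-ON points lie on one side of the 3 hSRY-OFF points, and the Gbp10 points are the most scattered. Positions can be compared within a row only.

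The effectors did not move as 1 block. Guanylate-binding proteins, large GTPases that interferon gamma induces and that attack vacuoles holding pathogens, gave 3 lower probes and 1 higher probe among 5 tested. Gbp3 fell on both probes. The probe with the larger change read 7.52, 7.88 and 7.36 in hSRY-OFF and 6.21, 5.65 and 6.58 in hSRY-ON hearts, a 2.71-fold lower level (log2 difference -1.44 ± 0.25 SE, adjusted p = 0.00514, limma). The other lay between 7.77 and 8.21 in hSRY-OFF hearts against 6.95 to 7.20 (difference -0.92 ± 0.15, adjusted p = 0.00417). On both the groups stood apart.

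Gbp2 read 9.36, 9.56 and 9.56 in hSRY-OFF and 8.76, 9.04 and 8.43 in hSRY-ON hearts. It fell by 0.75 ± 0.17 (adjusted p = 0.0169, limma), with no overlap, and its call was lost only without hSRY-OFF replicate 2 (adjusted p = 0.0548). Gbp6, from the same family, differed by -0.54 (adjusted p = 0.118), with overlapping groups.

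Gbp10 went the other way and had the largest rise of all members. It read 5.67, 5.02 and 4.81 in hSRY-OFF and 6.56, 8.19 and 7.36 in hSRY-ON hearts. All hSRY-ON hearts were above all hSRY-OFF hearts, yet they differed among themselves by more than those of any other called probe, and the difference was 2.20 ± 0.40 (SE, adjusted p = 0.0065, limma). Only 1 hSRY-OFF array read Gbp10 above background, so the probe entered the test through the hSRY-ON arrays. The size of its change ranged from 0.87 without background correction to 2.62 without hSRY-ON replicate 1. Gbp10 and Gbp6 are near-identical copies, and a Gbp6 probe differed in the opposite direction, so which of the copies was read is uncertain.

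The Ifit family, whose proteins bind foreign RNA ends, held the other effectors that rose. Ifit2 read 8.65, 9.06 and 8.83 in hSRY-OFF and 9.66, 9.63 and 9.29 in hSRY-ON hearts on its brighter probe (difference 0.68 ± 0.16 SE, adjusted p = 0.0186, limma). The dimmer probe read 6.13, 6.46 and 6.30 against 6.72, 6.80 and 6.92 (difference 0.51 ± 0.13, adjusted p = 0.0254). The groups did not overlap on either. Without hSRY-OFF replicate 1, hSRY-ON replicate 1 or hSRY-ON replicate 2 neither probe was called (adjusted p between 0.0519 and 0.0961), and without hSRY-ON replicate 3 the dimmer one was not (0.0688). Both calls were also lost without normalization between arrays (adjusted p = 0.233 for the brighter probe and 0.474 for the dimmer, limma). The dimmer one was lost as well without background correction (0.0715) and with an intensity trend (0.0612). Ifit3 differed by 0.12 (adjusted p = 0.696), and Ifit1 was detected on no array.

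The remaining effector families gave 0 calls by limma, with 2 of 11 tested probes at an unadjusted p under 0.05, against 27.5% called and 40.3% at that p over all tested probes. Ifitm2 and Ifitm3, membrane proteins that block the entry of viruses, differed by 0.15 and 0.07. For Ifitm3 the 95% interval of the difference was -0.20 to 0.34. Of 21 probes for the Oas enzymes, which make the signal for RNA cleavage, 14 were detected on no array and the 2 tested, of Oasl2 and Oas1c, differed by 0.15 and -0.09. Mx1 was detected on no array, and Mx2 on 1 array of each group. Ifi27, a mitochondrial and nuclear envelope protein strongly induced by type I interferon, had the largest uncalled difference among them, at -0.99 ± 0.34 (adjusted p = 0.0689), and 4 alternative settings and the fit without hSRY-ON replicate 3 called it. Its hearts read 7.23, 7.72 and 7.18 in hSRY-OFF and 6.50, 5.62 and 7.05 in hSRY-ON. Ifi30, the lysosomal thiol reductase that unfolds antigens for class II loading, differed by 0.26 and 0.33 on its probes and was not called.

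The MHC group showed no call, and its values were less precise than those of other probes. The median standard error was 0.22 over its 15 tested probes, against 0.16 over all tested probes. Its log2 differences ran from -0.50 to 0.43, and in 2 of the 15 probes (13.3%, against 45.2% of all tested probes) the groups did not overlap.

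On the class I side, B2m, the light chain of every class I molecule, read 12.61, 12.72 and 12.68 in hSRY-OFF and 12.33, 12.38 and 12.61 in hSRY-ON hearts. The groups just touched, and the difference of -0.23 had a 95% interval of -0.52 to 0.06 (adjusted p = 0.209, limma). A second B2m probe differed by -0.28, with an interval of -0.68 to 0.12 (adjusted p = 0.267). Falls of more than 0.68 lie outside both intervals, while smaller ones do not. Of the heavy chains, H2-K1, the only classical one among the members, was above background on 1 hSRY-ON array and was not tested.

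Of 28 probes for other class I genes 21 were detected on no array, and the 5 tested lay between -0.50 and 0.10. The probe of H2-Q7, a nonclassical heavy chain, read 5.43, 5.37 and 5.64 in hSRY-OFF and was above background on no hSRY-ON array, so its level was at least 1.11-fold lower there (adjusted p = 0.0694, limma). It entered the test through the hSRY-OFF arrays, where it is higher. H2 class I genes are near-identical copies, and FVB mice carry another MHC haplotype than the C57BL/6J reference. Whether these probes match the FVB alleles was not tested.

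The Tap transporter brings peptides into the endoplasmic reticulum for class I loading. Tap1 read 6.22, 6.15 and 6.79 in hSRY-OFF and 5.63, 5.62 and 6.48 in hSRY-ON hearts. The groups overlapped through the highest hSRY-ON heart, and the difference of -0.48 had an interval of -1.12 to 0.16 (adjusted p = 0.236). Without that heart, hSRY-ON replicate 3, the difference was -0.76 and was called (adjusted p = 0.048, limma). Tap2 differed by -0.03, with an interval of -0.29 to 0.22. H2-Ke6 is named for the MHC region but encodes a steroid dehydrogenase. It differed by -0.31 (adjusted p = 0.0889), and was called without background correction (0.0279) and with an intensity trend (0.0318).

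Class II molecules present peptides to CD4 T cells and are made by macrophages, dendritic cells and B cells. H2-Ab1, the class II beta chain, read 5.61, 5.90 and 6.35 in hSRY-OFF and 6.13, 6.01 and 7.01 in hSRY-ON hearts, a difference of 0.43 with an interval of -0.26 to 1.12. H2-DMa and H2-DMb1, which load the peptide, differed by 0.26 and 0.28. Cd74, the invariant chain, differed in the opposite direction, by -0.38 on a probe that read 8.07, 7.89 and 8.73 against 7.71, 7.43 and 8.43, and by -0.24 on another. All 5 of these probes overlapped between groups, with adjusted p between 0.318 and 0.654 (limma). H2-Aa and the class II regulator Ciita were detected on no array, and further probes of H2-Ab1 and one of H2-Eb1 on 1 array each.

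In the class II genes, hearts of the same group differed by more than the group means did. On 5 of 5 tested class II and Cd74 probes the replicate 3 heart was the highest in both groups, which held for 53.3% of the tested MHC probes, 14.8% of the interferon group and 14.1% of all tested probes. This feature was noticed after the values were seen. Across all tested probes the deviations of same-numbered hearts correlated at -0.03, 0.04 and -0.07, so the replicate numbers showed no array-wide pairing. A pairing that touches only some genes cannot be judged from these correlations.

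**Figure D3:**
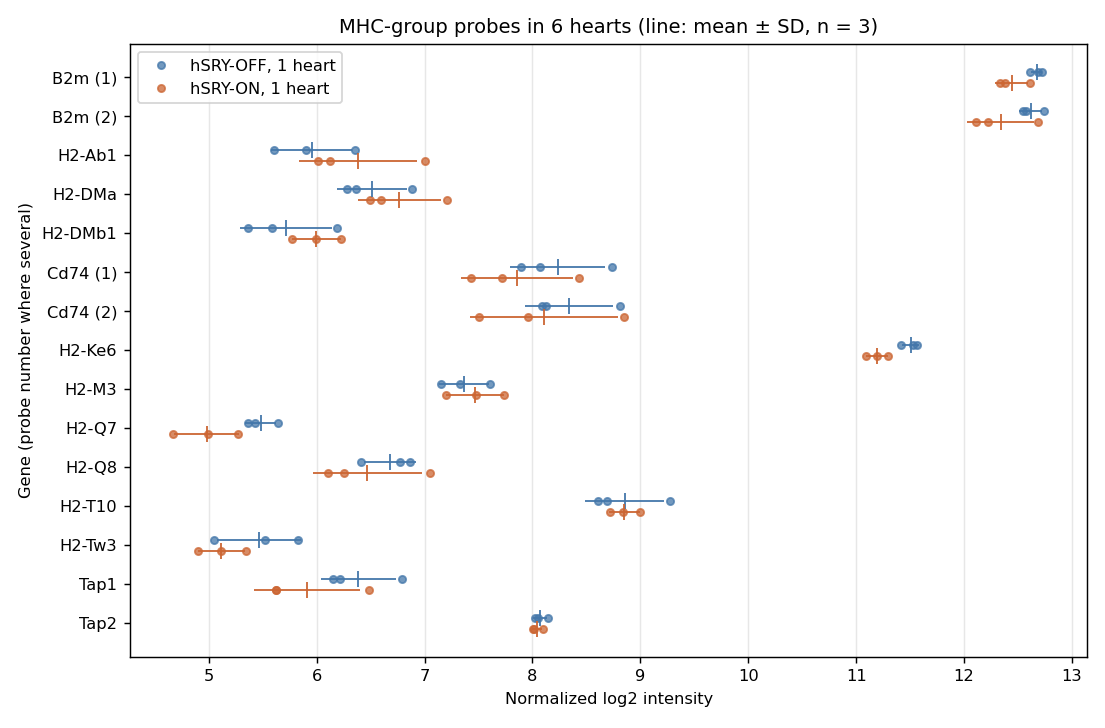
Normalized log2 intensity, on the horizontal axis, of the 15 tested MHC-group probes in each heart (points: 1 heart each; vertical ticks and bars: mean ± SD, n = 3 per group). The groups overlap on all rows except H2-Ke6 and H2-Q7, and for H2-Ab1, H2-DMa, H2-DMb1 and Cd74 the point farthest to the right in each colour is the replicate 3 heart.

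Markers of the cells that could carry these transcripts differed between the groups. Macrophage markers rose on 9 of 16 tested probes and fell on 0, against 13.8% and 13.7% of all tested probes. Their median log2 fold change was 0.90. Not called were Emr1 (-0.21), Aif1 (0.06 and 0.27), Cx3cr1 (0.19), Fcgr1 (0.19), Lyzs (0.31) and a second Csf1r probe (0.40). The summed intensity of the macrophage markers lay between 8057 and 11030 in the hSRY-OFF hearts against 18120 to 18840 in the hSRY-ON hearts. Lyz and Lyz2, the brightest of them, weigh most in that sum. They and Lyzs are lysozyme symbols that were counted as separate genes. Whether their probes read the same transcript was not tested, so they may not be independent markers. Of the 16 listed gene symbols on the array 15 were detected, with Itgam at background. The class II probes were not called beside the rise of these macrophage markers. T cell markers were dim, with Cd3e, Cd4 and Cd8a at background on every array. Cd3d and Cd3g fell by 0.63 and 0.78, but each was above background on 1 hSRY-ON array against 2 and 3 hSRY-OFF arrays, so both entered the test mainly through the group where they are higher. Lck, detected on all arrays, differed by 0.12 (adjusted p = 0.563, limma), and the summed T cell intensity was between 143 and 144 in hSRY-OFF against 83.8 to 127 in hSRY-ON hearts. Of 6 dendritic cell genes on the array 1 was detected, of 4 B cell genes 1, and the pan-leukocyte marker Ptprc on no array. The other pan-leukocyte genes, Coro1a and Laptm5, were detected on all arrays with 0 of 5 probes called by limma and 2 at an unadjusted p under 0.05. Laptm5 differed by 0.39 (adjusted p = 0.0547), with the hSRY-ON hearts above the hSRY-OFF hearts. Coro1a differed the other way, by -0.46 (adjusted p = 0.102, limma), -0.18, -0.14 and -0.05 on its probes, with overlapping groups. The leukocyte sum lay between 2377 and 2623 in hSRY-OFF hearts against 2676 to 3243 in hSRY-ON hearts. Laptm5, the brightest of these genes, weighs most in that sum, and the median log2 fold change of the tested leukocyte probes was -0.14. The cardiomyocyte markers, summed, were between 88090 and 101100 in hSRY-OFF against 79520 to 86570 in hSRY-ON hearts, and fell on 4 of 8 probes, of Myh6, Ryr2 and Tnni3. Nkx2-5 rose by 0.68, and the probes of Actc1 and Myl2 were not called. Of the endothelial markers Vwf rose by 1.32, and Cdh5 and Tek fell by 0.72 and 0.45. Dcn of the fibroblast list fell by 0.90 on 1 of 2 probes, and Hbb-b1 of the erythroid list fell by 1.29. Ttr of the hepatocyte list, above background on no hSRY-OFF array, was at least 3.87-fold higher in hSRY-ON hearts. It entered the test through the hSRY-ON arrays, where it is higher. Alb and Afp of the same list were detected on no array. Apoa1 was above background on 2 hSRY-ON arrays only and was not tested. The part of these shifts in the member genes was not tested.

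Outside the members, a wider list held 83 probes of 52 other genes of interferon sensing and signalling and of antigen processing. Of 49 tested probes 20 were called (40.8%), against 27.5% of all. Of these, 9 probes of 7 genes rose (18.4%, against 13.8%) and 11 probes of 9 genes fell (22.4%, against 13.7%), and the median was 0.01.

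Among the falls were parts of the machinery that cuts peptides for class I. Psmb10 and Psmb9 are catalytic subunits of the immunoproteasome, which interferon gamma induces. Psmb10 read 11.59, 11.53 and 11.45 in hSRY-OFF and 10.20, 9.93 and 10.38 in hSRY-ON hearts on 1 probe (difference -1.36 ± 0.14 SE, adjusted p = 0.000801, limma) and differed by -1.24 ± 0.13 on the other (adjusted p = 0.000748), with no overlap on either. Psmb9 read 7.51, 7.82 and 7.15 against 6.38, 6.02 and 6.96, again without overlap (difference -1.04 ± 0.27, adjusted p = 0.0241). Unlike Psmb10, called in all 16 alternative fits, Psmb9 was not called without hSRY-OFF replicates 1 or 2, without hSRY-ON replicates 1 or 2, or with the replicate block, and its difference ranged from -1.30 to -0.49 over all fits. The remaining subunit, Psmb8, differed by -0.44 (adjusted p = 0.295).

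Usp18, which silences the type I receptor, and Iigp2, an immunity-related GTPase, fell by 1.03 ± 0.30 and 0.97 ± 0.21 (adjusted p = 0.0375 and 0.0127, limma). The Usp18 call was lost in 7 of 16 alternative fits, among them those without any 1 of the hSRY-OFF hearts or hSRY-ON replicates 2 and 3, with differences from -1.36 to -0.34 over all fits. The other falling genes, named here after their values were seen, were Psme1 and Psme2, the proteasome activator that interferon gamma induces, Igtp, Trim21 and, on 1 of its 2 tested probes, Adar. The other tested Adar probe differed by 0.26, with the hSRY-ON hearts above the hSRY-OFF hearts (adjusted p = 0.169, limma). Psme1 fell by 0.90 and 0.88 on its 2 probes and Psme2 by 0.61. Rsad2, an antiviral enzyme, differed by -1.07 and was not called (adjusted p = 0.116), with hSRY-OFF replicate 3 well above the rest.

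The genes that rose had other roles. Rfxank, part of the complex that binds class II promoters, read 6.39, 6.25 and 6.64 in hSRY-OFF and 8.25, 7.97 and 7.81 in hSRY-ON hearts (difference 1.59 ± 0.16 SE, adjusted p = 0.000716, limma). Ctsl and Lgmn, lysosomal proteases that trim antigens, rose by 1.44 ± 0.25 and 0.98 ± 0.13 (adjusted p = 0.00558 and 0.00167). Tlr7, an endosomal sensor of single-stranded RNA, rose by 1.29 ± 0.15 (adjusted p = 0.000983). These 4 genes were called under each of the 16 alternative fits. Ptpn11, a phosphatase of receptor signalling, rose on 3 probes, and the receptor kinases Jak2 and Tyk2 rose on 1 of 2 and 1 of 3 probes. The calls of Jak2, Tyk2, Adar, Psme2 and Trim21 were lost in the fit without hSRY-OFF replicate 1, among others. Trim21 was called in only 4 of the 16 alternative fits, and was lost in each that left out a heart.

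**Figure D4:**
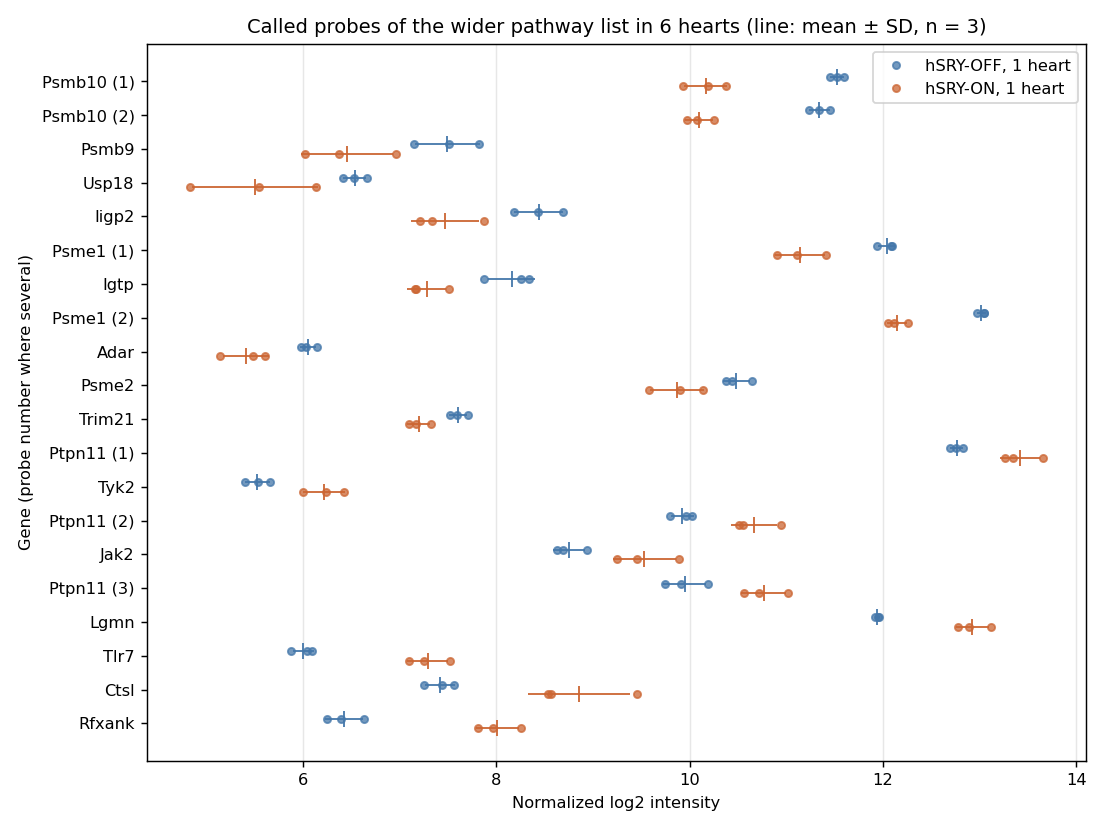
Normalized log2 intensity, on the horizontal axis, of the 20 called probes of the wider list in each heart (points: 1 heart each; vertical ticks and bars: mean ± SD, n = 3 per group), from the largest decrease at the top to the largest increase at the bottom. The proteasome subunits Psmb10, Psmb9, Psme1 and Psme2 sit among the decreases and Tlr7, Ctsl and Rfxank are the last rows, and the groups do not overlap in any row.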

How the data were processed

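Total RNA from 6 hearts, 3 in each group, was hybridized to 1-colour MouseRef-8 v2.0 BeadChips. The authors deposited the bead intensity of each probe, not normalized and on a linear scale, with lowest values of 110 to 135 per array. Each value came with a detection p-value that the authors deposited beside it. The study's methods name the R package TCC without settings, and the labels' processing notes name limma. No values of other samples were in the table.

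Groups came from the sample titles. Nothing states that the pups came from separate litters or that arrays were run in batches, so p-values measure the spread between these 6 samples. With R 4.3.3 and limma 3.58.1, neqc used these to correct the background (offset 16), then quantile normalization and log2 followed. Probes with a detection p under 0.05 on at least 3 of the 6 arrays were fitted with lmFit and eBayes, group as the only term, and p-values were adjusted over all 12970 of them by the Benjamini-Hochberg method. Errors given with ± are standard errors of the difference unless named SD, and intervals are 95%. Where no array of a group read a probe above background, its change is given as a bound. A single exact permutation test on 3 against 3 hearts cannot go below p = 0.1, so limma's fit across probes was used. The steps were tested on simulated data. The alternatives were other background corrections, scalings and filters, an intensity trend, a replicate block and leaving out each heart.

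The rule for named genes was the 30 called member probes with the largest change (15 were called), a list of well-known members whatever their values, and the 4 largest rises and falls of the wider list; other names were added after their values were seen. Some members count in the totals and are not reported here by name or drawn. The members and all lists were chosen with earlier results of these data known. Promoters were RefSeq windows matched by symbol or synonym. Python 3.11.15 with matplotlib 3.10.9 drew the figures.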

Additional observations from a re-analysis of the deposited data

How the results depend on the processing

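With 3 arrays per group their number limits the precision, and 107 of the 176 member probes were too near background to test. No called member changed sign under any of the 16 alternatives, 10 that changed a setting and 6 that left out a heart, and 8 of the 15 were called under every one, among them Stat5a and every called Ifngr2 and Gbp3 probe. Gbp10 was called wherever it was tested. Leaving out 1 heart gave 10 to 17 called members, 2 to 6 up and 8 to 11 down, against 15, 5 and 10. In the interferon group it gave 10 to 17 calls, 2 to 6 up and 8 to 11 down, and in the MHC group 0 to 1, down, with 1 without hSRY-ON replicate 2 (H2-Q7, a probe with only a bound) or hSRY-ON replicate 3 (Tap1). All tested probes then gave 2206 to 3669 calls, against 3567, and the wider list 13 to 19, with 7 to 10 up and 6 to 9 down. The 2 upward members were reached without hSRY-OFF replicate 1, hSRY-ON replicate 1 or hSRY-ON replicate 2. The wider list had 6 downward calls without hSRY-OFF replicate 1, and 7 without hSRY-OFF replicate 2 or hSRY-ON replicate 2. Without hSRY-OFF replicate 1 all probes gave 2206 calls and without hSRY-ON replicate 1 they gave 2255.

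Without normalization between arrays, all tested probes gave 1897 calls, members and interferon group each 2 upward, and the wider list 13, of them 4 upward. That setting moved the median of all tested probes to -0.12, and 38.5% of all calls and 16.7% of member calls were then upward, against 50.1% and 33.3%. Median scaling gave 65.7% and 46.7%, and turned the median of the interferon group from -0.08 to 0.04. Taking 1 probe per gene or leaving out hSRY-OFF replicate 3 put that median at 0.01, so its sign depends on the setting. The median of the MHC group was below 0 in every fit, from -0.36 to -0.04. The MHC group had 1 downward call without background correction and with an intensity trend (H2-Ke6 in both), and 1 with no probe filter (H2-Eb1). The cause of these shifts was not tested. With the replicate block, 16 members were called, 14 of them shared with the fit without it; Ifngr1 was lost, and all tested probes gave 21.9% calls. Across all tested probes the replicate numbers showed no pairing of the hearts, which does not settle it for single genes. The alternatives for the wider list and the macrophage markers were added after seeing the data, and the macrophage list gave 7 to 9 calls in them.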
